A study of Homo sapiens with 6 samples.

Results

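Osteopontin, matrix Gla protein and other genes of mineralised matrix were followed in MDA-MB231 cells after knockdown of G9a. The set comprised SPP1, IBSP, MEPE, DMP1, DSPP, MGP, BGLAP, SPARC, RUNX2 and ALPL. A gene counted as measured where the platform's annotation gave it a probe set naming that gene alone, and the probe set with the highest mean over all 6 arrays stood for it. That left 9 of the 10 genes, out of 18417 genes measured in this way. The exception was BGLAP, which encodes osteocalcin: its 1 probe set is shared with the PMF1-BGLAP readthrough gene, and no value is given for it. The set was chosen by values of this same comparison, SPP1 and MGP having been seen to be higher in the knockdown, so the differences of the 9 genes are a description and support nothing further.

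The G9a knockdown group comprised 3 arrays of 1 clone of MDA-MB231, an established line of metastatic human breast cancer cells, carrying a stable knockdown of G9a; the control group comprised 3 arrays of the untreated parental cells. G9a, the product of EHMT2, methylates histone H3, a mark of repressed chromatin. Both groups were grown in medium with serum, taken in logarithmic growth and profiled as total RNA, and the labels call the knockdown cells less metastatic. Because a clone was set against an uncloned parental line, the effect of the knockdown and the particular properties of that clone cannot be told apart. Nothing states that the 3 arrays of a group came from separate cultures, so errors cover the spread between arrays, which may be technical. Values are log2 intensities, with differences given as knockdown minus control and standard errors from limma. In bulk RNA, fewer cells expressing a gene and less RNA per cell cannot be told apart.

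SPP1, IBSP, MEPE, DMP1 and DSPP belong to the SIBLING family, secreted acidic phosphoproteins of bone and dentine that bind integrins through an RGD sequence and lie in a row on chromosome 4. Matrix Gla protein and osteocalcin carry glutamates that vitamin K-dependent carboxylation turns into calcium-binding residues; matrix Gla protein is known as an inhibitor of soft tissue calcification. RUNX2 is the master transcription factor of osteoblasts, and several of the other genes are its known targets in bone. Breast cancer cells that settle in bone are known to take up parts of this programme, and osteopontin is widely studied in metastasis.

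Sequence just upstream of the SIBLING genes is shown as a description. SPP1, the family member called higher, can then be set beside IBSP, MEPE, DMP1 and DSPP, which were not called. SPP1 was chosen because it was higher in this same comparison. The other members lay in the lowest 33.3% of genes by mean log2 value, where a change may not be visible. Nothing about the calls is therefore read from these sequences. The windows below run from 70 bases before to 10 bases after the RefSeq start of each gene (GRCh38.p14, plus strand, 5′ to 3′), with the AT-rich element near the usual place of a TATA box in capitals. They lie at chr4:87975644-87975723 for SPP1, chr4:87799484-87799563 for IBSP, chr4:87832899-87832978 for MEPE, chr4:87650210-87650289 for DMP1 and chr4:87608459-87608538 for DSPP. MEPE has 2 start sites among the RefSeq windows, and the one with such an element is shown.
SPP1: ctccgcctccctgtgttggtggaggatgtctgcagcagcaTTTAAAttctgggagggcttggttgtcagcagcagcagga
IBSP: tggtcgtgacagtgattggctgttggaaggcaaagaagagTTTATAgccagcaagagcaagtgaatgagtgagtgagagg
MEPE: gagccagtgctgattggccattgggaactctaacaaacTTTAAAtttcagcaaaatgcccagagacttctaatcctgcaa
DMP1: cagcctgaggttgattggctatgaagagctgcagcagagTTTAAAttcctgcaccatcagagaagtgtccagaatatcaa
DSPP: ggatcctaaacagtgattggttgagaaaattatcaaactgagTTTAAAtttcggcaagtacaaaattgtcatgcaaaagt
SPP1, MEPE, DMP1 and DSPP carried TTTAAA with its first base at -30, -32, -31 and -28, counted from the start. IBSP carried TTTATA, the reverse complement of TATAAA, at -30; it is known as the inverted TATA box of this gene. This element was singled out after the windows had been read. TTTAAA with its first base from -40 to -20 was present in 1.51% of 35116 RefSeq promoter windows, and TTTATA there in 0.72%. A match in letters is a description and does not show that a factor binds.

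The 300-base promoter window of SPP1 (chr4:87975464-87975763, plus strand, 250 bases before to 50 after the start) is shown in full because SPP1 had the largest difference of the 9 genes. Capitals mark ACCACA, the reverse complement of the RUNX motif TGTGGT, which lies at -142 to -137 from the start.
SPP1: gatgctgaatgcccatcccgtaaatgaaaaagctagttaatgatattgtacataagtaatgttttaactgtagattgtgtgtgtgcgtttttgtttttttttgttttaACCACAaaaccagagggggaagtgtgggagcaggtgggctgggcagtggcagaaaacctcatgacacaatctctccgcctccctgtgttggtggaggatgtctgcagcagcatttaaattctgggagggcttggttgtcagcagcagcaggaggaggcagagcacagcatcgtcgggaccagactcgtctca
On either strand, TGTGGT occurred in 13.1% of the 35116 windows, and among the 13 windows of 9 genes of the set it occurred in 5, those of SPP1, DMP1, BGLAP, MEPE and RUNX2. CCAAT on either strand was in 4 of the 13, those of IBSP, DMP1, DSPP and MEPE, and in 34.6% of all windows. TATAAA on either strand was in 5 of the 13, those of ALPL, BGLAP, DSPP, IBSP and MEPE, and in 11.5% of all windows. It was not found at SPP1. The AP-1 motif TGANTCA was found at RUNX2 alone among the 13 (7.71% of all windows), and the E-box CACGTG at ALPL alone (7.26%). The MGP promoter was not analysed here.

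The target gene checked the labels. EHMT2 stood at 9.66, 9.59 and 9.51 on the knockdown arrays, against 10.21, 10.27 and 9.93 on the control arrays, and the groups did not overlap. EHMT2 fell by 0.55 ± 0.10 (SE; limma, adjusted p = 0.0259), the knockdown level being 0.681 times that of control. Leaving out each array in turn kept the sign, yet just 1 of those 6 fits called the gene, without control replicate 3 (-0.66, adjusted p = 0.0101), and the adjusted p was 0.0716 to 0.122 in the others. The 8 genes listed as expressed in this line, VIM and CD44 among them, all lay outside the lowest 33.3% of genes by mean log2 value. Of 8 listed as absent, 4 lay within it. EPCAM, CLDN3, GATA3 and FOXA1, also listed as absent, lay above it, with control means of 8.79, 9.23, 9.26 and 8.78. A value outside the lowest 33.3% therefore does not show expression. Of the genes listed as absent, CDH1, encoding E-cadherin, was called higher (0.45 ± 0.07, SE; limma, adjusted p = 0.0177), though it lay in the lowest 33.3%. That call was lost in 5 of the 6 fits on 5 arrays (adjusted p = 0.0525 to 0.0983), the exception being the fit that dropped control replicate 3 (0.51). Array medians were 7.79 to 7.86. Control replicate 3 received the lowest array weight from limma, 0.273, the next lowest being 0.413 for knockdown replicate 1. The highest weights were 4.825 for control replicate 2 and 2.051 for knockdown replicate 3, so a weighted fit leans on those arrays. On 7 of the 9 genes of the set control replicate 3 was the highest control array, which was so for 42.6% of all genes.

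Osteopontin transcripts were higher in the knockdown. SPP1, the gene of this secreted integrin and CD44 ligand, read 9.78, 9.73 and 9.71 on the knockdown arrays and 8.62, 8.78 and 9.22 on the control arrays. Every knockdown array lay above every control array, with control replicate 3 nearest to them. The means were 9.74 ± 0.04 in the knockdown and 8.87 ± 0.31 in control (SD, n = 3 each), and the difference was 0.87 ± 0.14 (SE) on the log2 scale, or 1.83-fold. EPCAM and FOXA1, listed as absent in this line, had control means of 8.79 and 8.78. Signal was not separated from background at that level, so the fold of SPP1 is uncertain. Control replicate 3 lay 0.52 above the mean of the other control arrays, which was 49.7% of the way from them to the knockdown mean. Without it the difference was 1.04, and over all 6 ways of leaving out 1 array it ran from 0.74 to 1.04. SPP1 ranked 10 from the top among the differences of all 18417 genes.

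The other SIBLING genes gave no comparable difference. IBSP, encoding bone sialoprotein, read 6.03, 5.91 and 5.70 in the knockdown and 5.87, 5.92 and 6.09 in control, a difference of -0.08 ± 0.10 (SE). DMP1, a dentine and osteocyte matrix protein, read 5.74, 5.38 and 5.55 in the knockdown and 5.42, 5.42 and 5.50 in control (0.11 ± 0.09). MEPE, an osteocyte phosphoglycoprotein, read 4.88, 4.65 and 4.72 in the knockdown and 4.78, 4.51 and 4.66 in control (0.10 ± 0.09). In each of these the groups overlapped. DSPP, whose product is cut into dentine matrix proteins, read 4.96, 4.83 and 4.90 in the knockdown and 4.76, 4.96 and 5.08 in control (-0.04 ± 0.09), again with overlap. All of these fell within the lowest 33.3% of genes by mean log2 value, below 7.53, where signal was not separated from background, so a change in transcripts near background may not be visible. Their 95% confidence intervals reached -0.30 at the lowest and 0.32 at the highest. The signs of IBSP and DSPP turned with 1 array left out, to 0.0080 for IBSP without knockdown replicate 3 and to 0.03 for DSPP without control replicate 3.

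MGP was higher in the knockdown too, with tighter controls. It read 7.07, 7.28 and 7.16 on the knockdown arrays and 6.35, 6.28 and 6.35 on the control arrays. The lowest knockdown array exceeded the highest control array by 0.72, the widest such gap in the set. The means were 7.17 ± 0.11 in the knockdown and 6.33 ± 0.04 in control (SD, n = 3 each), a difference of 0.84 ± 0.07 (SE), 12 from the top among all genes. It ran from 0.78 to 0.89 with 1 array left out. MGP also lay in the lowest 33.3% of genes by mean log2 value, so the difference is left on the log2 scale. SPP1 and MGP differed on control replicate 3: it sat 0.04 above the other controls for MGP and 0.52 above them for SPP1.

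**Figure D1:**
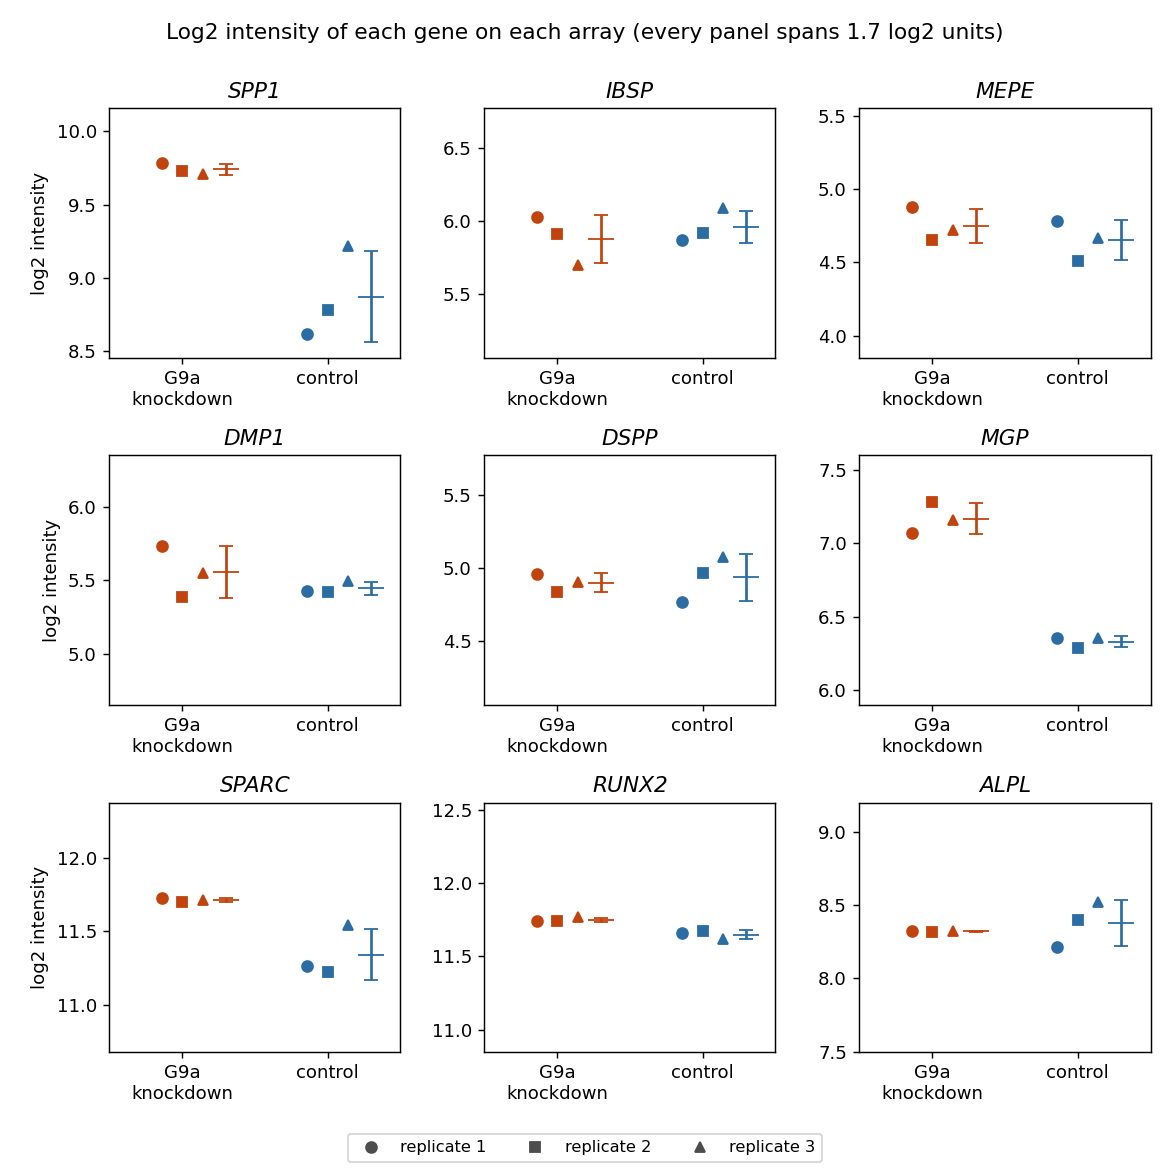
Log2 intensity (y axis) of the 9 measured genes on each array, with the 3 G9a knockdown arrays on the left and the 3 control arrays on the right of each panel. Points are arrays, with a marker shape for each replicate number, and the bar beside them is the mean with its SD. The groups are clear of each other for SPP1, MGP, SPARC and RUNX2 and overlap in the other 5 panels.

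SPARC, or osteonectin, is a collagen- and calcium-binding matrix glycoprotein. It read 11.73, 11.70 and 11.72 on the knockdown arrays and 11.26, 11.22 and 11.54 on the control arrays. The groups did not overlap, and control replicate 3 was again the control nearest to the knockdown, at 63.2% of the way from the other controls. The difference was 0.37 ± 0.09 (SE), or 1.30-fold, and 0.47 without control replicate 3. Relative to their means over the 6 arrays, SPP1 and SPARC both stood lowest on control replicates 1 and 2, at -0.69 and -0.52 for SPP1 and at -0.27 and -0.31 for SPARC.

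RUNX2 varied very little. It read 11.74, 11.74 and 11.77 in the knockdown and 11.66, 11.67 and 11.62 in control. These groups did not overlap either, but the difference was 0.10 ± 0.06 (SE), or 1.07-fold. The pooled SD of RUNX2 was 0.02, at percentile 1.33 of all genes. ALPL, the tissue-nonspecific alkaline phosphatase that frees phosphate for mineral, read 8.32, 8.32 and 8.32 in the knockdown and 8.21, 8.40 and 8.52 in control. Its groups overlapped and the difference was -0.06 ± 0.08 (SE), turning to 0.02 without control replicate 3. The knockdown arrays of ALPL had an SD of 0.0025 and its control arrays one of 0.16. The SD was smaller in the knockdown than in control for 6 of the 9 genes and for 52.0% of all genes.

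Of the 9 genes, 2 were called higher at an adjusted p of 0.05 (SPP1 and MGP), none was called lower and 7 did not pass (limma over all genes). In the whole comparison 1.28% of genes were called higher, 1.78% lower and 3.05% in either direction. At an unadjusted p of 0.05 there were 3 of the 9, SPARC being the third, against 19.4% of all genes. The groups did not overlap, all with higher knockdown values, for 4 of the 9, against 14.3% of all genes in that direction and 27% in either. Since this comparison chose the set, nothing is read from those counts. The median difference was 0.10 over the 9 genes and 0.03 over all genes, and 6 of the 9 differences were positive, as were 59.6% of all genes. MGP was called in all 6 fits with 1 array left out. SPP1 was called without control replicate 1 or 3 but not without control replicate 2 (0.82) or knockdown replicates 1, 2 or 3 (0.85, 0.87 and 0.88), and SPARC was called without control replicate 3.

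**Figure D2:**
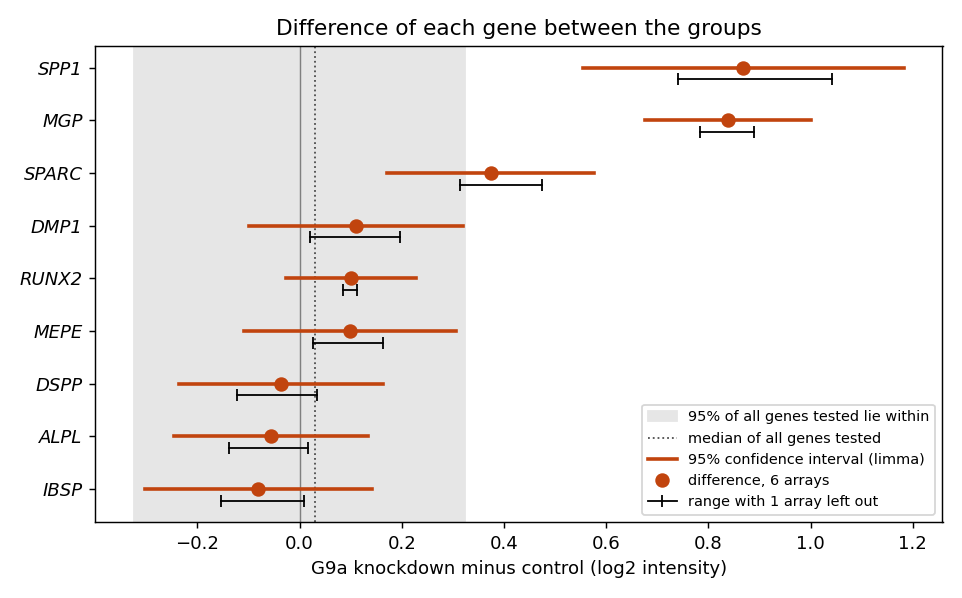
Difference between G9a knockdown and control (x axis, log2 intensity) for each of the 9 genes, with limma's 95% confidence interval in red and the range with 1 array left out in black. The grey band spans -0.32 to 0.32, within which 95% of all genes lie, and SPP1 (0.87), MGP (0.84) and SPARC (0.37) have their points to its right.

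The SIBLING genes are neighbours, so their surroundings on chromosome 4 were examined. In RefSeq order the tested genes run DSPP, DMP1, IBSP, MEPE, HSP90AB3P and SPP1. HSP90AB3P, a pseudogene whose probe set may pick up its HSP90 parent, stood at -0.16 ± 0.10 (SE), and at -0.25 to -0.05 with 1 array left out. Of the 5 tested genes on each side, 9 of 10 had negative differences, with a median of -0.13 and a range of -0.41 to 0.18. None of the 10 passed (limma), and HSD17B13 (-0.31), PPM1K (-0.41) and HERC3 (-0.33) had an unadjusted p under 0.05. As the next tested gene beyond SPP1, the drug efflux transporter gene ABCG2 was at -0.14 ± 0.14 (-0.03 without control replicate 1 and -0.30 without control replicate 3), and before the cluster SPARCL1, a relative of SPARC, was at -0.03 ± 0.12. HERC6, the neighbour with a positive value (0.18), turned to -0.05 without control replicate 3, and SPARCL1 to 0.07 without it. Over all 709 tested genes of chromosome 4 the median was -0.07, with 33.0% positive, 9 called higher and 38 called lower, and SPP1 had the second highest difference of them. MGP had the highest difference of 982 tested genes of chromosome 12, whose median was 0.03. SPARC ranked 8 from the top of 782 genes of chromosome 5, whose median was -0.06.

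**Figure D3:**
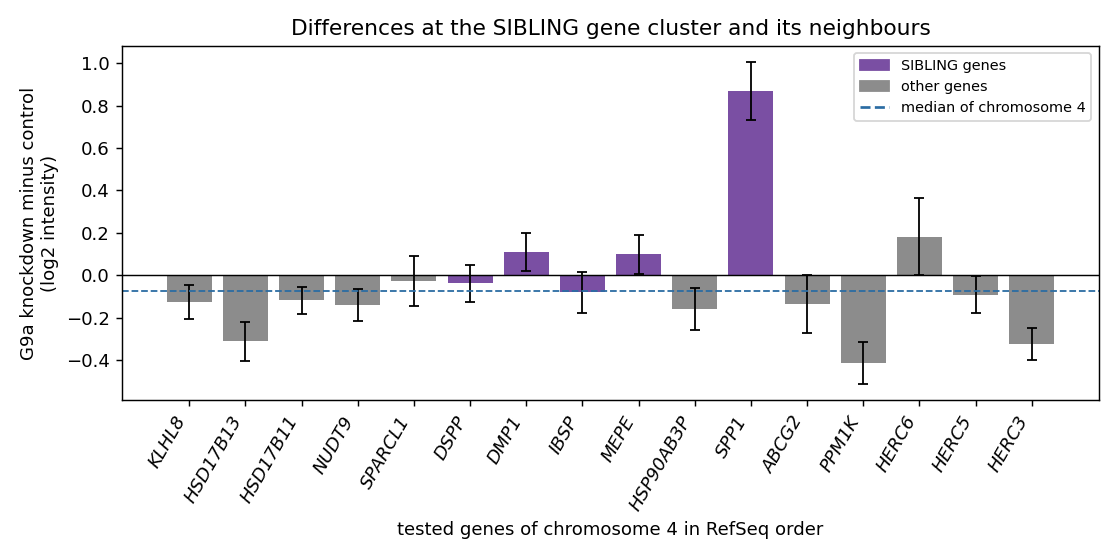
Difference between G9a knockdown and control (y axis, log2 intensity; bars with SE) for the tested genes of the SIBLING cluster and 5 genes on each side, in RefSeq order. SPP1, at 0.87, stands above a run of values between -0.41 and 0.18, and the dashed line marks the median of chromosome 4, -0.07.

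The genes whose profile over the 6 arrays lay closest to SPP1 were found by the root mean square difference of values centred on each gene's mean, among genes outside the lowest 33.3%. They were CDH5, the endothelial cadherin (0.12), MGAM, an intestinal disaccharidase (0.12), and CYTIP, a cytohesin-binding protein of leukocytes (0.15). For MGP they were DMBT1, a mucosal scavenger receptor protein (0.06), ZNF717, a zinc finger gene (0.09), and TM4SF18, a tetraspanning membrane protein (0.09). SPP1 and MGP were 0.19 from each other, and SPARC was 0.27 from SPP1. The measure follows the group difference as well as variation within groups.

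Genes that act with the set were grouped into lists, chosen with earlier results of these data known. None of 10 receptor genes for osteopontin and its relatives passed (limma), and their median difference was 0.05 against 0.03 over all genes. ITGB3, the partner of ITGAV in the classical osteopontin receptor, read 9.07, 9.20 and 9.40 in the knockdown and 9.60, 9.63 and 10.60 in control. The groups did not overlap, but control replicate 3 stood far above all the others. The difference was -0.72 ± 0.24 (SE; adjusted p = 0.158) and -0.39 without control replicate 3. ITGAV (0.04), ITGB1 (-0.07) and CD44 (-0.05) differed little. At an unadjusted p of 0.05 there were 2 of the 10, ITGB3 and ITGB5 (0.28), another partner of ITGAV, a share near the 19.4% of all genes.

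Of 13 genes handling phosphate, pyrophosphate and the processing of SIBLING proteins, none passed (limma). Positive differences were found for 11, against 59.6% of all genes. An unadjusted p under 0.05 was found for 7, SLC20A2 with its negative difference among them, against 19.4% of all genes. The median was 0.18, the highest of the lists, and was the value of PHEX, whose groups overlapped. PHEX, FAM20A, TLL1, FGF23 and AHSG lay in the lowest 33.3% of genes by mean log2 value. Signal was not separated from background there, so these counts rest in part on genes near background. FAM20A, a pseudokinase that activates FAM20C, read 6.64, 6.55 and 6.72 in the knockdown and 6.32, 6.41 and 6.17 in control, without overlap (0.34 ± 0.08, SE; adjusted p = 0.0659). FAM20C, the secretory kinase that phosphorylates osteopontin and its relatives, was at 0.31 ± 0.08 (SE; adjusted p = 0.0685), a gene named after its value was seen. The proteinase genes TLL1 (0.28) and BMP1 (0.24), whose products cut DMP1 and DSPP, and the convertase gene FURIN (0.20), also named afterwards, had positive values that did not pass. The phosphate transporter gene SLC20A2 (-0.17) went the other way. The pyrophosphate genes ENPP1 and ANKH were at 0.06 and 0.11.

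Among 14 genes of the vitamin K cycle and other Gla proteins, 1 rose, none fell and 13 did not pass (limma). Over all genes 1.28% were called higher and 1.78% lower. At an unadjusted p of 0.05 (limma) there were 2 of the 14, against 19.4% of all genes. The median was 0.05 against 0.03 over all genes. NQO1, a quinone reductase able to reduce vitamin K, read 11.47, 11.55 and 11.56 in the knockdown and 11.11, 11.08 and 10.70 in control, with no overlap. It rose by 0.56 ± 0.11 (SE), or 1.47-fold (limma, adjusted p = 0.0368). The call was lost without control replicate 2 or any of the knockdown replicates (adjusted p = 0.0690 to 0.146), and control replicate 3 was the lowest array, the difference being 0.43 without it. The carboxylase gene GGCX (0.16) and the epoxide reductase gene VKORC1 (0.08), on which matrix Gla protein depends, did not pass. PRRG1, a membrane Gla protein, was at -0.31 (adjusted p = 0.0818).

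Of 15 measured transcription factors of the osteoblast lineage, none passed (limma), 4 had an unadjusted p under 0.05, against 19.4% of all genes, and the median was 0.07. The factors at that level were CBFB, the binding partner of RUNX proteins (0.20), RUNX3 (0.24), MSX2 (-0.23) and ATF4 (-0.27, adjusted p = 0.165). ATF4 was at -0.16 without control replicate 3. None of 17 genes of the SPARC family and bone matrix glycoproteins passed either (median 0.07), and POSTN, or periostin, had the largest difference (-0.31, adjusted p = 0.184; -0.20 without control replicate 3). SMOC1, a SPARC relative, was the other gene with an unadjusted p under 0.05 (0.29). The SPARC list had 1 member called without control replicate 3.

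Genes linked to bone metastasis of breast cancer moved both ways. Of 17 measured, 1 rose, 2 fell and 14 did not pass (limma), against 3.05% of all genes called in either direction. PTHLH, also listed, was not measured. At an unadjusted p of 0.05 there were 9 of the 17, against 19.4% of all genes. Positive differences were found for 5 of the 17, against 59.6% of all genes. The groups did not overlap for 7 with lower and 3 with higher knockdown values, against 12.7% and 14.3% of all genes. VCAM1, an adhesion molecule that engages integrins of osteoclast precursors, read 7.60, 7.93 and 7.86 in the knockdown and 7.07, 6.96 and 7.34 in control, clear of overlap. It rose by 0.68 ± 0.12 (SE; limma, adjusted p = 0.0273). VCAM1 lay in the lowest 33.3% of genes by mean log2 value, where signal was not separated from background, so no fold is given. ADAMTS1, a secreted metalloproteinase, read 9.92, 9.98 and 9.85 in the knockdown and 10.57, 10.49 and 10.62 in control. It fell by 0.64 ± 0.07 (SE; limma, adjusted p = 0.00574), and was called in all 6 fits with 1 array left out. FGF5, a fibroblast growth factor, read 10.64, 10.66 and 10.66 in the knockdown and 10.97, 11.00 and 11.17 in control. It fell by 0.40 ± 0.07 (SE; limma, adjusted p = 0.0264). VCAM1 and FGF5 were each called in 1 of the 6 fits, that without control replicate 3 (0.79 and -0.34), with adjusted p of 0.0528 to 0.122 and 0.0502 to 0.115 in the others. IL11 (-0.17), CXCR4 (-0.16), CCN2 (-0.21), MMP1 (-0.24) and JAG1 (0.25), genes of the bone metastasis literature named after their values were seen, did not pass. The list's median was -0.07, and 0.05 without control replicate 3.

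Matrix Gla protein also binds bone morphogenetic proteins, and that pathway was examined. Of 17 measured ligands, receptors and antagonists, none rose, 1 fell and 16 did not pass (limma), with a median of -0.01. Over all genes 1.28% were called higher and 1.78% lower. At an unadjusted p of 0.05 there were 6 of the 17, against 19.4% of all genes. The groups did not overlap for 5 with lower knockdown values and 1 with higher ones, against 12.7% and 14.3% of all genes. BMPR1B, a type I receptor, read 8.66, 8.74 and 8.66 in the knockdown and 9.07, 9.04 and 8.92 in control. The groups did not overlap and it fell by 0.32 ± 0.06 (SE; limma, adjusted p = 0.0405). With 1 array left out the call was kept only without control replicate 3 (-0.37), with adjusted p of 0.0865 to 0.164 otherwise. CLDN3 and GATA3, listed as absent in this line, had higher control means, 9.23 and 9.26. Signal was therefore not separated from background for BMPR1B. BMP2, a ligand that matrix Gla protein is known to bind, was at 0.13 and did not pass. Its groups overlapped, and it lay in the lowest 33.3% of genes by mean log2 value, where a change may not be visible. Another ligand gene, BMP4, was the 1 gene of the list with higher knockdown values and no overlap. It was at 0.24 ± 0.09 (SE; limma, adjusted p = 0.208). The ligand gene BMP5 went the other way without overlap (-0.27) and did not pass either.

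**Figure D4:**
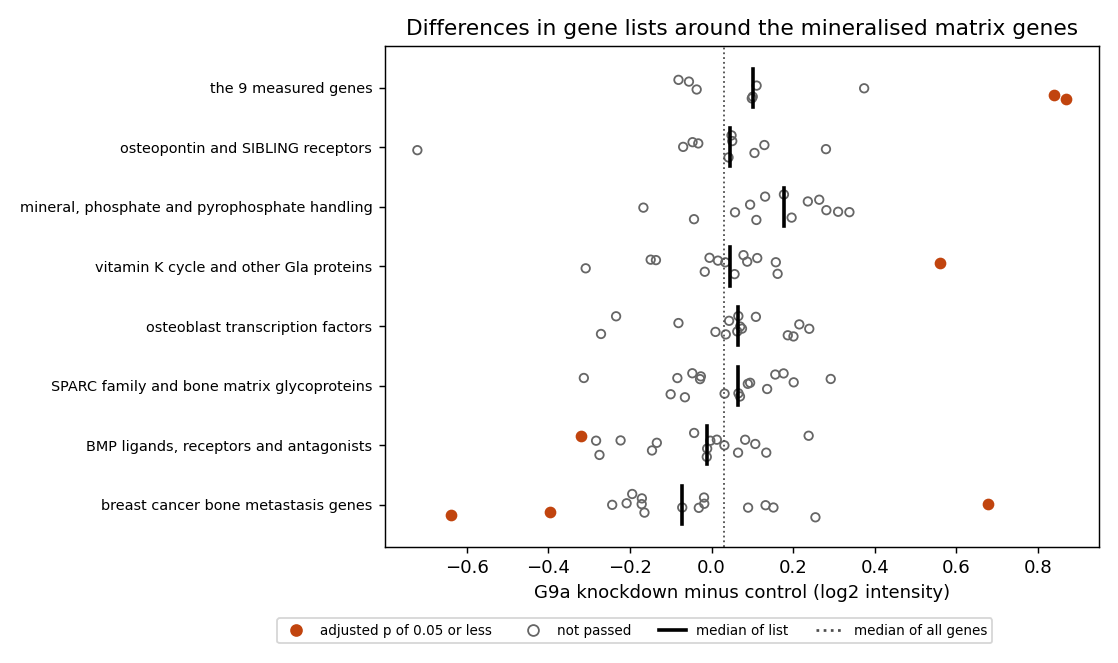
Difference between G9a knockdown and control (x axis, log2 intensity) for each measured gene of the set and of 7 lists around it (rows). Filled points passed at an adjusted p of 0.05, open points did not, the black bar is the median of each row and the dotted line the median of all genes (0.03). The row for phosphate and pyrophosphate handling has the median farthest right among the lists (0.18) with no filled point.

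Markers of other cells that make these proteins were counted as a check. Over all genes 3.05% were called in either direction and 19.4% had an unadjusted p of 0.05 or less (limma). None of 8 osteoblast and osteocyte markers passed (limma; 1 at an unadjusted p of 0.05, PTH1R, at 0.17). Macrophages are a known source of osteopontin. None of 12 leukocyte and macrophage markers passed (limma; PTPRC at 0.21, CSF1R at 0.22 and CD68 at -0.19 had an unadjusted p of 0.05 or less). Of these 12 markers, 8 lay in the lowest 33.3% of genes by mean log2 value, where a change may not be visible. Of 7 measured osteoclast markers 1 fell, ATP6V0D2 (-0.77 ± 0.16, SE; limma, adjusted p = 0.0462), a call lost with any 1 array left out (adjusted p = 0.0599 to 0.150). Of 12 fibroblast and endothelial markers, 1 rose (CDH5, by 0.71), 1 fell (LUM, at -1.31, in the lowest 33.3% of genes; limma, adjusted p = 0.00732) and 10 did not pass. PECAM1, another endothelial marker, was the other gene with an unadjusted p of 0.05 or less (0.42, adjusted p = 0.0591 by limma), and its groups did not overlap. The CDH5 call (adjusted p = 0.0210) was lost without control replicate 2 or any knockdown replicate (0.0615 to 0.0869). Mean log2 values over that list were 7.21 to 7.29 on the knockdown arrays and 7.08 to 7.33 on the control arrays. No value of CDH5 or ATP6V0D2 exceeded the control means of CLDN3 and GATA3 (9.23 and 9.26), listed as absent in this line. Signal was therefore not separated from background for CDH5 or ATP6V0D2. The part of other cell types in the values of SPP1 and MGP was not tested.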

How the data were processed

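Total RNA was hybridised to single-colour arrays, 3 of the G9a knockdown clone and 3 of parental control cells, and groups came from the sample titles. The log2 values were summarised per probe set and brought to a common scale by the authors before they were deposited; the software is not given in the sources used here, and the log base was inferred from the range, 2.13 to 14.8. Of 33297 probe sets, 19460 named 1 gene in the platform annotation, 1754 several and 12083 were unlisted; symbols were updated through Entrez numbers against RefSeq (GRCh38.p14), which held 19429 of the 19460. Where a gene had several probe sets (769 genes), the one with the highest mean was used. Detection calls were not used here, and low values stand as deposited. The number of arrays limits the precision.

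All 18417 genes were fitted with limma 3.58.1 in R 4.3.3 (lmFit, eBayes, no covariate, 4 residual degrees of freedom, two-sided), with Benjamini-Hochberg adjustment over all genes and calls at 0.05. The steps were tested on simulated data. Named genes were the set, EHMT2, up to 4 passing members of each list by size or else the 1 with the largest difference, 5 neighbours on each side of the SIBLING cluster, and 3 closest profiles for SPP1 and for MGP. The members, lists and rules were chosen with earlier results of these data known. Promoter sequences are from RefSeq (GRCh38.p14); 13 windows matched 9 of the 10 genes, all but MGP, and the promoters' coordinates are those of that build, since the array data name none.

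Alternatives were quantile normalisation, subtraction of each array's median, leaving out the lowest 33.3% of genes, a variance trend, array weights, all probe sets, means over a gene's probe sets, a replicate block and leaving out each array. Replicate numbers are not said to pair the arrays. Same-numbered arrays' deviations from their group means correlated at -0.246, 0.122 and 0.0877, which does not settle whether such arrays shared a batch.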

Additional observations from a re-analysis of the deposited data

How the results depend on the processing

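The number of genes called, 562 with 6 arrays, was 972 after the lowest 33.3% of genes were dropped and 1083 with a variance trend. It was 3328 with array weights and 217 with the replicate block, and ran from 44 to 535 with 1 array left out. Over all 33297 probe sets, those naming no gene or several genes among them, 60 probe sets were called. SPP1 and MGP kept their sign in each of these alternatives in which they were measured (14 and 13), from 0.74 to 1.04 and from 0.78 to 0.89. From 1 to 3 of the 9 genes were called: SPP1 was not called over all probe sets, and SPARC was called with a variance trend, array weights or the lowest genes left out, where MGP drops out by construction. EHMT2 was at -0.55 over all probe sets, where it was not called (adjusted p = 0.0957), and between -0.66 and -0.49 with 1 array left out. With the replicate block SPP1 and MGP stayed called, and EHMT2, LUM, ADAMTS1, ATP6V0D2, VCAM1 and CDH1 did too. NQO1, FGF5, BMPR1B and CDH5 were not called there (limma, adjusted p = 0.0669, 0.0649, 0.0907 and 0.0649). SPP1 and MGP were chosen by this comparison, so their calls support nothing further. With array weights, which called 3328 of all 18417 genes, 6 of 13 genes of the phosphate and pyrophosphate list were called. The same fit called 8 of 17 genes of the bone metastasis list and 5 of 15 osteoblast factors. Nothing is read from these counts. The cause of these shifts was not tested.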

Other observations

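The promoter windows of the set differed in base composition. SPP1 held 6 CG dinucleotides in 300 bases, IBSP and DSPP 4 each and DMP1 2, against a median of 14 over 35116 windows. SPARC held 11 and BGLAP 10. RUNX2 had a window with 2 and another with 39, and ALPL, with 3 windows, had 9, 11 and 42. These are counts in the reference sequence, and methylation was not measured.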
